A study of Mus musculus with 84 samples.

Results

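Fibroblast growth factor (FGF) signalling in astrocytes was followed through 6 genes, the receptors Fgfr1, Fgfr2 and Fgfr3, the receptor-like gene Fgfrl1, and the ligands Fgf1 and Fgf2. They were taken by name, with earlier results of these data known, and all 6 were present in both count tables, among 48526 genes listed for the experimental autoimmune encephalomyelitis (EAE) experiment and 25773 for the subtype experiment. RNA was sequenced from astrocytes that were sorted by FACS as live CD11B-negative, CD45-negative cells with the astrocyte surface protein ACSA-2 (ATP1B2), and split by the glutamate transporter GLAST (SLC1A3) into GLASTneg and GLASTpos cells. EAE is a mouse model of multiple sclerosis in which immunisation with a peptide of myelin oligodendrocyte glycoprotein in complete Freund's adjuvant, followed by pertussis toxin, leads to inflammation of the CNS. In that experiment 66 libraries came from 10-week-old female wild type C57BL/6J mice. Unimmunised controls (C) gave 5 libraries each of spinal cord GLASTneg, hindbrain GLASTneg and hindbrain GLASTpos astrocytes. Mice with a limp tail (score 1, E1) gave 5, 6 and 6 libraries, mice with paralysed hind legs (score 4, E4) gave 6, 6 and 6, and mice in the chronic stage (Ech) gave 6, 6 and 4. The subtype experiment held 3 libraries each of forebrain GLASTneg, forebrain GLASTpos, hindbrain GLASTneg, hindbrain GLASTpos and spinal cord GLASTneg astrocytes of untreated FVB/N wild type mice, and 3 libraries of astrocytes cultured from the cerebrum of newborn C57BL/6J mice. A library holds RNA of 1 mouse or of 2, unimmunised controls did not receive the adjuvant or the toxin, and spinal cord GLASTpos cells were not sequenced.

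FGFs bind receptor tyrosine kinases on the cell surface together with heparan sulphate chains, and the activated receptor recruits adaptor proteins that switch on the MAP kinase cascade. This cascade turns on ETS transcription factors and feedback inhibitors of its own signal. Fgfr3 is a widely used marker of mature astrocytes and of their precursors, Fgfr1 and Fgfr2 are also expressed by neurons and by cells of the oligodendrocyte lineage, Fgfrl1 binds FGFs but has no tyrosine kinase domain, and Fgf1 and Fgf2, the acidic and basic FGFs, are ligands that lack a classical secretion signal.

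The 200 bases that end 51 bases before the RefSeq start site are shown for the 3 receptor genes whose levels separated groups in the results below and that had a window in RefSeq's GRCm38.p6 table. Each is written 5′ to 3′ on the strand of its gene, and capitals mark the SP1 motif GGGCGG or its complement CCGCCC.
Fgfr3, chr5:33721474-33721673, plus strand: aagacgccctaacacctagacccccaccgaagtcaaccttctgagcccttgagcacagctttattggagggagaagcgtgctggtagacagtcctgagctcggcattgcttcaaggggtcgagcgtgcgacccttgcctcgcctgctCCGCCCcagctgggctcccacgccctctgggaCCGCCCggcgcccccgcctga
Fgfr2, chr7:130266859-130267058, minus strand: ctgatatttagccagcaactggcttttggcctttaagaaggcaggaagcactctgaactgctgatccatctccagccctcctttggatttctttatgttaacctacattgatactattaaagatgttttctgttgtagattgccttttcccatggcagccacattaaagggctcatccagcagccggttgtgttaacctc
Fgfrl1, chr5:108693979-108694178, plus strand: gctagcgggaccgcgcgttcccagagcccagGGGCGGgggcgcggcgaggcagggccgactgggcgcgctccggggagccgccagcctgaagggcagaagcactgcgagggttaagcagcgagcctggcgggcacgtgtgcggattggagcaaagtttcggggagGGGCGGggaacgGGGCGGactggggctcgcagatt
The windows shown for Fgfr3, which has a second one in the table, and for Fgfrl1 held 2 and 3 SP1 matches and had a GC content of 65% and 73%, and the window of Fgfr2 held none and had 44%, against a median of 51.5% over 32851 windows. GGGCGG occurred on either strand in 24.6% of those windows. None of the 3 windows held the STAT motif TTCNNNGAA, the AP-1 motif TGANTCA, the ETS motif CCGGAA or the letters TATAAA, which were found in 5.76%, 5.57%, 8.03% and 9.14% of all windows.

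In the GRCm38 annotation, all 6 are protein coding. Fgfr1 (ENSMUSG00000031565) lies at chr8:25513654-25575718 on the plus strand, Fgfr2 (ENSMUSG00000030849) at chr7:130162451-130266808 on the minus strand by RefSeq, Fgfr3 (ENSMUSG00000054252) at chr5:33721674-33737068 and Fgfrl1 (ENSMUSG00000008090) at chr5:108692382-108706924, both on the plus strand, Fgf2 (ENSMUSG00000037225) at chr3:37348346-37410108 on the plus strand, and Fgf1 (ENSMUSG00000036585) on chromosome 18.

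Levels are given as counts per 1000000 counts of the library after TMM scaling (CPM). The libraries were made from the 3′ ends of transcripts and the values were not divided by gene length, so levels were compared between groups and not between genes. EAE libraries held 1313682 to 4895220 counts (median 2936680), and 3 counts corresponded to 0.613 to 2.28 CPM. Fgf2 was close to that floor, with 0 to 103 counts in a library and a median of 16.5, while Fgfr1 had 10 to 1060. Differences were tested with edgeR's quasi-likelihood test on 23324 genes, and adjusted p-values are Benjamini-Hochberg values over all of them, with 0.05 as the threshold. A library is a separate sort of 1 or 2 mice, so p-values measure the spread between such sorts. For 1 library, spinal cord E1 replicate 1, the title and the region label disagree, and its title was used. Its summed level of 5 Hox genes, which mark the spinal cord, was 179 CPM, beside 58.9 to 250 CPM in the other 4 spinal cord E1 libraries and at most 11 CPM in any hindbrain library.

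Marker genes of several cell types differed with disease in the sorted spinal cord cells, and these values stand beside every spinal cord result below. The summed level of 10 astrocyte markers had a median of 19834 CPM in controls (15254 to 22201), 8529 at E1 (5358 to 25862), 3801 at E4 (2850 to 4408) and 5819 at Ech (3735 to 6518). At E4, 8 of these 10 genes fell and Gfap, an intermediate filament protein of reactive astrocytes, rose, while S100b differed by 0.04 on the log2 scale and did not pass the test. The summed level of 10 oligodendrocyte markers had a median of 17404 CPM in controls (13818 to 39623), 38809 at E1 (25254 to 57815), 48605 at E4 (28174 to 71978) and 29665 at Ech (24379 to 39405), and 5, 7 and 3 of the 10 rose. The 4 precursor markers had medians of 287, 340, 485 and 1345 CPM in that order, and all 4 rose at Ech. Myeloid markers summed to 21.0 to 70.9 CPM in controls and to 153 to 308 CPM in 5 E4 libraries, with 5602 CPM in E4 replicate 2, and 4, 10 and 5 of 12 rose. The 5 Hox genes summed to medians of 415 CPM in controls, 167 at E1, 47.4 at E4 and 165 at Ech. At E1, E4 and Ech, 1, 5 and 1 of them fell. Of 5 T cell markers, 1, 4 and 2 rose. Of 5 neuron markers, 3 fell and 1 rose at E1, 4 fell and 1 rose at E4, and 1 rose at Ech. Of 6 mural and fibroblast markers, 3 fell at E4, and 3 fell and 1 rose at Ech. Over all genes, 8.42%, 22.4% and 18.7% passed at these stages. In the hindbrain the astrocyte list stayed within 20696 to 41570 CPM and 1 gene of it, Gfap, rose at each stage. In GLASTneg cells 2, 2 and 0 oligodendrocyte markers and 1, 4 and 1 myeloid markers rose at E1, E4 and Ech. There 0.677%, 0.755% and 0.197% of all genes passed. In GLASTpos cells 2, 3 and 8 oligodendrocyte, 2, 3 and 1 myeloid and 3, 4 and 1 T cell markers rose. There 1.58%, 2.18% and 1.43% of all genes passed. In such bulk samples fewer astrocytes and less RNA of a gene per astrocyte cannot be told apart.

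Fgfr3 had the largest difference from controls among the 6 genes and 3 populations, and it passed the test in the spinal cord only. Control libraries had 1442, 1133, 914, 1319 and 1650 CPM. The E1 libraries had 449, 947, 132, 278 and 375 CPM, all but 1 of them below the lowest control. At E4 the 6 libraries ranged from 14.7 to 83.2 CPM with a median of 39.5, and at Ech from 27.9 to 65.1 CPM with a median of 41.4, so that neither stage overlapped with the controls. Fgfr3 was thus already 2.96-fold lower at E1 (log2 change −1.57 ± 0.30 SE, adjusted p = 1.39e-04), 30.4-fold lower at E4 (−4.92 ± 0.32, adjusted p = 5.71e-21) and 29.8-fold lower at Ech (−4.90 ± 0.32, adjusted p = 6.27e-21). From E1 to E4 it fell a further 10.3-fold (−3.36 ± 0.30, adjusted p = 5.29e-14), and between E4 and Ech the difference was 0.02 ± 0.27 on the log2 scale. Over all genes, 8.42% passed the test at E1, 22.4% at E4 and 18.7% at Ech, and all 3 of these comparisons share the same 5 control libraries. Of the 6 genes, 2 passed at E1, 3 at E4 and 2 at Ech.

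**Figure D1:**
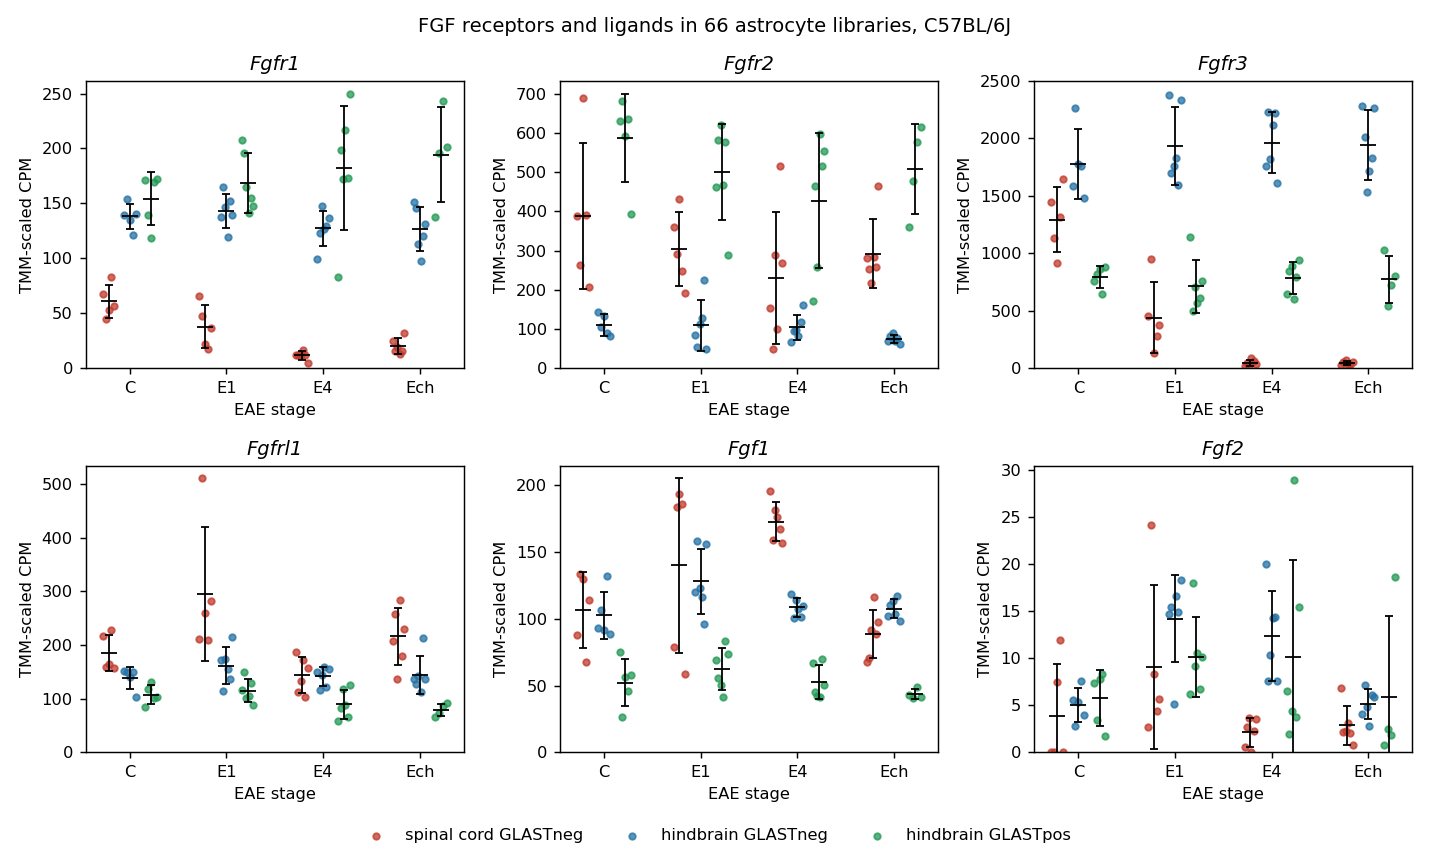
Level (CPM after TMM scaling) of the 6 genes in each of the 66 EAE libraries, by stage, for the 3 sorted populations. Points are libraries and bars are mean ± SD. Fgfr3 and Fgfr1 drop in spinal cord at E4 and Ech, with Fgfr3 means of 42.3 and 43.1 CPM against 1292 in controls, while in the hindbrain every stage overlaps with its controls.

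Fgfr1 also fell in the spinal cord at E4 and Ech. Controls had 67.4, 44.3, 52.7, 82.6 and 56.2 CPM, and E1 libraries 66, 46.9, 21.7, 17.1 and 36 CPM, which overlapped with them. E4 libraries ranged from 4.44 to 16.3 CPM (median 12) and Ech libraries from 12.7 to 31.8 CPM (median 17.3), all below every control. The decrease was 5.25-fold at E4 (−2.39 ± 0.25, adjusted p = 2.32e-12) and 3.04-fold at Ech (−1.60 ± 0.24, adjusted p = 2.08e-07). The difference at E1 did not pass (−0.69 ± 0.25, adjusted p = 0.0722), but did without the library whose labels disagree (−1.01, adjusted p = 0.00583). Fgfr1 was lower at E4 than at E1 (−1.71 ± 0.25, adjusted p = 2.83e-07), where 5.97% of genes passed, and from E4 to Ech it rose 1.73-fold (0.79 ± 0.24, adjusted p = 0.0411), where 4.45% passed. That last step passed in only 10 of 21 alternatives.

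Unlike Fgfr3 and Fgfr1, Fgfr2 and Fgfrl1 did not pass against spinal cord controls at E4 or Ech, and the genes were not tested against each other. Fgfr2 had 389, 262, 689, 390 and 208 CPM in spinal cord controls, 359, 291, 431, 248 and 192 CPM at E1, 48.5 to 517 CPM (median 210) at E4 and 217 to 464 CPM (median 269) at Ech. The groups overlapped, and no stage passed the test, with log2 differences of −0.35, −0.76 and −0.41 and adjusted p-values of 0.585, 0.0837 and 0.416. At E4 the difference passed in 5 of 21 alternatives, DESeq2 among them (adjusted p = 0.0371), and without E4 replicate 5, which had 517 CPM, it was −1.17 (adjusted p = 0.00474). Fgfrl1 had 216, 159, 164, 228 and 158 CPM in controls and 211, 512, 260, 210 and 283 CPM at E1. It rose 1.59-fold at E1 (0.67 ± 0.22, adjusted p = 0.0366), a call that passed in only 10 of 20 alternatives. It was lost without E1 replicate 2 (0.37, adjusted p = 0.258) or without 1 of 4 other libraries, namely control replicates 2, 3 and 5 and E1 replicate 5, and also with scaling by total counts (adjusted p = 0.0786), with no filter (0.0730), with the spinal cord fitted alone (0.101) and without the libraries of 2 mice (0.207). From E1 to E4, Fgfrl1 fell 2.05-fold (−1.03 ± 0.21, adjusted p = 1.94e-04), with 103 to 187 CPM in all 6 E4 libraries and no overlap. Against controls it did not pass at E4 (−0.36, adjusted p = 0.196) or at Ech (0.22, adjusted p = 0.503).

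The ligand Fgf1 rose in the spinal cord at E4, a stage at which Fgfr3 and Fgfr1 fell. Spinal cord controls had 87.7, 134, 130, 67.8 and 114 CPM, E1 libraries were spread over 78.9, 183, 193, 186 and 58.5 CPM, and the 6 E4 libraries lay close together between 156 and 196 CPM (median 172), all above every control. The increase at E4 was 1.62-fold (0.69 ± 0.22, adjusted p = 0.0148). Ech libraries ranged from 67.7 to 116 CPM, which was 1.95-fold below E4 without overlap (−0.96 ± 0.21, adjusted p = 0.00175) and not different from controls by the test (−0.27, adjusted p = 0.427). The E4 call passed in 18 of 21 alternatives. Among others, it was lost without control replicate 4 (adjusted p = 0.0689). It was also lost when the number after the last S in the brackets of the titles was fitted as a covariate (0.47, adjusted p = 0.320). The labels do not say what this S number is. It was divided at 56 for this purpose, and was above 56 in all controls but in only 1 of 6 E4 libraries. Every spinal cord difference between E4 and controls, those of Fgfr3 and Fgfr1 included, runs along this split. Fgf2 had 0, 0, 7.45, 11.9 and 0 CPM in spinal cord controls and 0 to 24.2 CPM in the 17 EAE libraries. None of its 3 comparisons passed, with log2 differences of 1.16, −0.87 and −0.45.

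**Figure D2:**
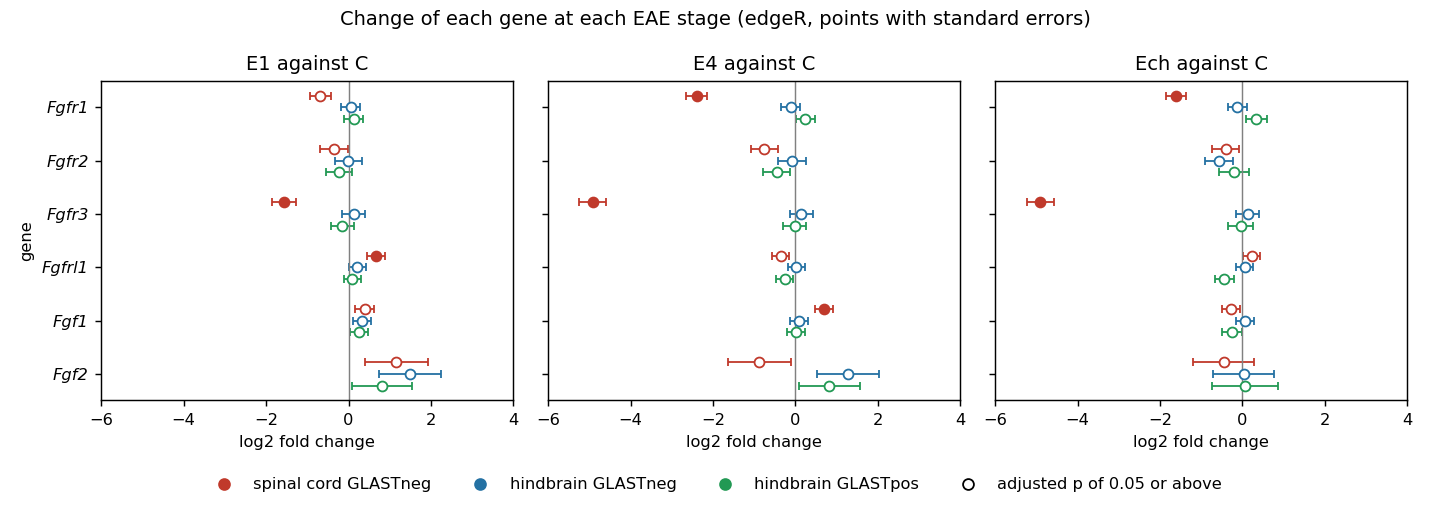
Log2 change of the 6 genes at E1, E4 and Ech against controls of the same population, from the edgeR fit. Bars are ± SE and filled points have an adjusted p under 0.05. All 7 filled points are in spinal cord, from −4.92 for Fgfr3 at E4 to 0.69 for Fgf1 at E4.

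Levels were also expressed per 1000 CPM of the 10 astrocyte markers, a scale that was added after the data were seen and was not tested. S100b made up 11.1% of this sum in spinal cord controls on average, 19.9% at E1, 59% at E4 and 74.8% at Ech, so the values are given with it and without it. With all 10 markers, Fgfr3 went from 66.3 ± 7.93 (SD, n = 5) in spinal cord controls to 36.3 ± 7.13 at E1 (n = 5), 11.4 ± 6.30 at E4 (n = 6) and 8.04 ± 2.16 at Ech (n = 6). Without S100b it was at 74.6 ± 8.19, 45.5 ± 9.50, 26.4 ± 8.07 and 32.6 ± 8.91 in the same order. No library of E4 or Ech reached the lowest control in either form, with highest values of 18.9 and 11.1 against 56.9 with S100b, and of 35.3 and 48.1 against 65.3 without it. For Fgfr1 the picture depended on this 1 marker. It was at 3.17 ± 0.78, 3.63 ± 1.61, 3.21 ± 1.18 and 3.85 ± 1.61 with S100b, and at 3.56 ± 0.85, 4.62 ± 2.16, 8.86 ± 4.73 and 15.2 ± 3.91 without it, where each Ech library (8.75 to 19.3) was above every control (2.55 to 4.61). With all 10 markers, Fgfrl1 was at 9.68 ± 1.99, 29.5 ± 12.1, 38.79 ± 5.75 and 43.1 ± 17.1, and Fgf1 at 5.65 ± 1.99, 16.3 ± 13.4, 47.8 ± 9.79 and 17.4 ± 5.65. Without S100b their E4 means were 115 and 137. In hindbrain GLASTneg cells Fgfr3 was at 66, 67.2, 68.4 and 80.5 with all 10 markers. The markers are themselves genes that changed, and the part that the oligodendrocyte, precursor and myeloid transcripts have in these values was not tested.

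**Figure D3:**
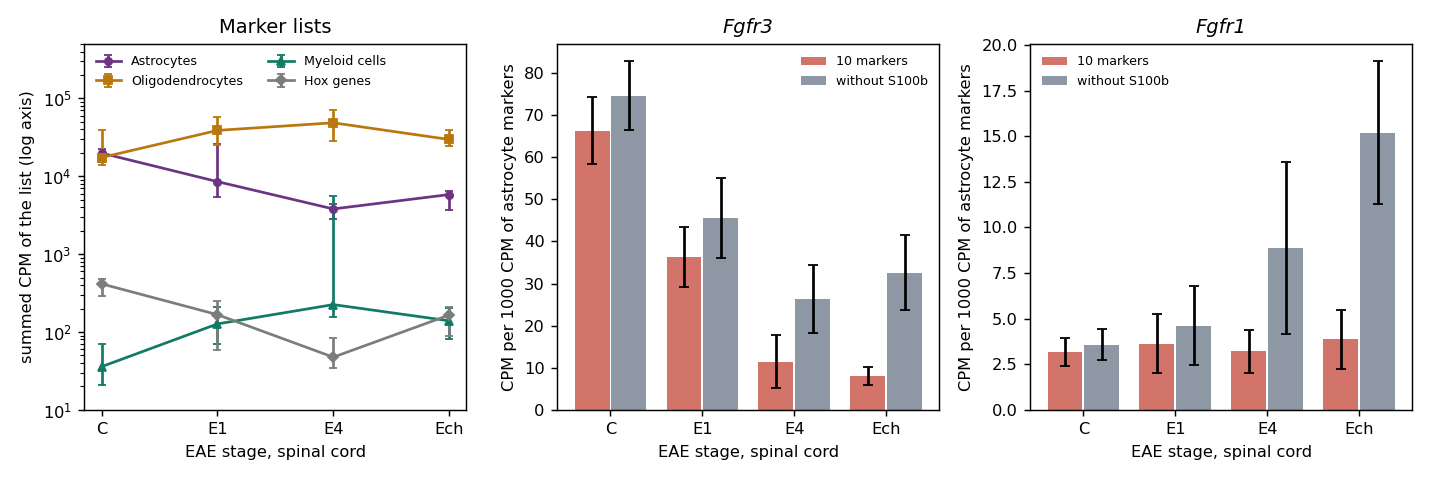
Spinal cord libraries by stage. Summed CPM of the marker lists on a log axis (points are medians, bars the lowest to highest library), and Fgfr3 and Fgfr1 per 1000 CPM of the 10 astrocyte markers or of the 9 without S100b (bars are mean ± SD). The astrocyte sum goes from a median of 19834 to 3801 CPM at E4. Fgfr3 goes from 66.3 to 11.4 with S100b and from 74.6 to 26.4 without it, and Fgfr1 from 3.17 to 3.21 and from 3.56 to 8.86.

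In hindbrain astrocytes none of the 6 genes passed at any stage. In GLASTneg cells, 0 of 18 comparisons passed with edgeR or with DESeq2, none had an unadjusted p under 0.05, and 0.677%, 0.755% and 0.197% of all genes passed at E1, E4 and Ech. Fgfr3 was at 1480 to 2269 CPM in these controls, 1598 to 2382 at E1, 1609 to 2232 at E4 and 1530 to 2287 at Ech, and its log2 differences were 0.12, 0.14 and 0.13. Fgfr1 lay between 97.6 and 165 CPM in all 23 libraries. The widest difference was that of Fgf2, with 2.76 to 7.62 CPM in controls and 14.7, 15.5, 5.16, 16.6, 14.9 and 18.3 CPM at E1, where 5 of 6 libraries were above every control (1.48 ± 0.75, adjusted p = 0.532). It passed when the 23 libraries of this population were fitted alone (adjusted p = 0.0258).

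In GLASTpos cells, 0 of 18 comparisons passed with either tool, again with none at an unadjusted p under 0.05, while 1.58%, 2.18% and 1.43% of all genes passed. Fgfr3 was at 648 to 883 CPM in controls and at 492 to 1142, 596 to 939 and 538 to 1029 CPM at E1, E4 and Ech. Fgfr1 had a mean of 154 ± 24.2 CPM in controls (SD, n = 5) and 194 ± 43.2 at Ech (n = 4), and Fgfrl1 of 108 ± 17.7 and 79.5 ± 11.6. The log2 differences of the 6 genes over the 3 stages lay between −0.46 and 0.82. No step from E1 to E4 or from E4 to Ech passed in either hindbrain population with edgeR or DESeq2, and none had an unadjusted p under 0.05. In those steps 0.00% and 0.0857% of all genes passed in GLASTneg cells and 0.0214% and 4.11% in GLASTpos cells.

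The contrast between spinal cord and hindbrain was tested directly as a difference in response. Relative to hindbrain GLASTneg cells, the response of Fgfr3 in spinal cord was lower by 1.69 ± 0.40 on the log2 scale at E1 (adjusted p = 0.0460), by 5.07 ± 0.42 at E4 (adjusted p = 1.22e-14) and by 5.03 ± 0.42 at Ech (adjusted p = 4.01e-15). That of Fgfr1 was lower by 2.28 ± 0.34 at E4 (adjusted p = 4.57e-07) and by 1.48 ± 0.34 at Ech (adjusted p = 0.00135). Of all genes, 0.214%, 8.56% and 7.20% passed at E1, E4 and Ech. The E1 difference of Fgfr3 passed in 13 of 30 alternatives, and the other 4 in all 31. The S number was 56 or less in all hindbrain GLASTneg libraries, in 0 of 5 spinal cord controls and in 5 of 6 spinal cord E4 libraries. At E4 the stage and the S number therefore go largely together in spinal cord and cannot be fully told apart. Fgfr2, Fgfrl1, Fgf1 and Fgf2 did not pass in this contrast at any stage, nor did any of the 6 genes with edgeR or DESeq2, or at an unadjusted p under 0.05, between the responses of hindbrain GLASTpos and GLASTneg cells, where 0.00857%, 0.00857% and 0.0600% of all genes passed.

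Without disease, the receptors already separated the populations of C57BL/6J mice. Hindbrain GLASTpos controls had 632, 683, 593, 636 and 394 CPM of Fgfr2, and hindbrain GLASTneg controls 144, 104, 133, 88.3 and 80.4 CPM, a 5.35-fold difference without overlap (2.42 ± 0.36, adjusted p = 4.84e-07). Fgfr3 went the other way and was 2.23-fold lower in GLASTpos cells (−1.16 ± 0.29, adjusted p = 0.00313), and Fgf1 was 1.96-fold lower (−0.97 ± 0.23, adjusted p = 0.00163), both without overlap. Of all genes, 13.5% passed between these populations, and the median of all genes was −0.11 on the same scale. The same hindbrain GLASTneg controls served for spinal cord GLASTneg cells, where 5.33% of genes passed. There Fgfr1 was 2.28-fold lower (−1.19 ± 0.25, adjusted p = 5.64e-04) and Fgfr2 3.53-fold higher (1.82 ± 0.35, adjusted p = 1.96e-04), both without overlap, while Fgfr3 (−0.46, adjusted p = 0.395) and Fgfrl1 (0.41, adjusted p = 0.287) did not pass. The summed oligodendrocyte markers were 13818 to 39623 CPM in spinal cord controls, 1378 to 4778 in hindbrain GLASTneg and 1154 to 1323 in hindbrain GLASTpos controls, and 5 markers of Bergmann glia, the astrocytes of the cerebellar cortex, summed to 5607 to 6995 CPM in hindbrain GLASTpos and 745 to 960 CPM in GLASTneg controls. Their part in these differences was not tested. The first number in the brackets of the titles recurs across populations of the same stage. With that number as a block in limma voom (correlation 0.0384), Fgfr3 was also lower in spinal cord than in hindbrain GLASTneg controls (−0.55, adjusted p = 0.0218), and 6 comparisons of control populations passed in place of 5. Voom was not run without this block, so the block and the method cannot be told apart. All GLASTpos libraries have an S number above 56 and all hindbrain GLASTneg libraries one of 56 or less, so the S number and the sort cannot be told apart within the hindbrain. All 5 spinal cord controls are above 56 too, so the comparison of control spinal cord with hindbrain GLASTneg cells has the same split. With the S number as a covariate, which the spinal cord libraries allow, Fgf1 no longer passed (−0.69, adjusted p = 0.170).

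Ordered by mean level over the 12 groups, Fgfr3 was highest in the 4 hindbrain GLASTneg groups (1776 to 1962 CPM), of which no neighbours in the order differed beyond the larger SD of the pair. Spinal cord controls (1292 ± 283 CPM) and the 4 hindbrain GLASTpos groups (713 to 795 CPM) followed, each step beyond the SD. Spinal cord E1 (436 ± 309 CPM) did not stand apart from the group above it, and spinal cord Ech and E4 (43.1 ± 16.5 and 42.3 ± 25.9 CPM) came last, a step beyond the SD from E1 but not from each other. For Fgfr1 the 8 hindbrain groups came first (126 to 194 CPM) with no step beyond the SD, followed by spinal cord controls (60.6 ± 14.8), E1 (37.5 ± 19.8), Ech (19.8 ± 7.26) and E4 (11.5 ± 3.85), of which E1 and Ech did not differ beyond the SD. The order of Fgfr2 ran from hindbrain GLASTpos (428 to 588 CPM) through spinal cord (229 to 388 CPM) to hindbrain GLASTneg groups (74.3 to 110 CPM), and no neighbours differed beyond the SD. Fgfrl1 was highest in spinal cord E1 (295 ± 125 CPM) and lowest in hindbrain GLASTpos Ech (79.5 ± 11.6 CPM), with its only step beyond the SD between the hindbrain GLASTneg controls and the GLASTpos E1 group. Fgf1 had a single such step, between spinal cord Ech (88.7 ± 17.9 CPM) and the 4 hindbrain GLASTpos groups (43.7 to 62.3 CPM). Fgf2 had none, from 14.2 ± 4.62 CPM in hindbrain GLASTneg E1 to 2.12 ± 1.52 CPM in spinal cord E4.

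Among 6803 genes averaging 20 CPM or more, group means like those of Fgfr3 over the 12 groups were those of Ntsr2, a neurotensin receptor (Pearson r = 0.996 on log2(CPM + 1)), and Acsl6, an acyl-CoA synthetase (0.994). Ntsr2 was at 478 ± 92.6 CPM in spinal cord controls and at 14.8 CPM at E4. The most alike for Fgfr1 were Dag1, which encodes dystroglycan (0.990), Acss1 (0.988) and Slc2a4 (0.987), for Fgfr2 Rab6a (0.979), Cnot8 (0.979) and 9530068E07Rik (0.975), for Fgf1 Shisa4 (0.975), Itsn2 (0.973) and Plekhf1 (0.955), and for Fgfrl1 Gnl2 (0.924), Fabp5 (0.914) and Zfp276 (0.901). Fgf2, whose own mean was under 20 CPM, reached 0.902 with Lamp2, 0.851 with Ergic3 and 0.846 with Lias. The groups share libraries of 1 tissue and stage, so these values describe the pattern and were not tested.

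Other genes of the pathway, taken from 5 lists, also passed the test in the spinal cord. Their counts are to be read against the 8.42%, 22.4% and 18.7% of all genes that passed at E1, E4 and Ech. Of 12 feedback inhibitors and target genes, 11 were tested, and 3 fell and 1 rose at E1, 7 fell and 1 rose at E4, and 4 fell at Ech, with a median log2 change of −1.70 at E4 against 0 over all genes. Dusp6, a phosphatase of the MAP kinase ERK, went from 132 ± 15.1 CPM in controls (n = 5) to 18.4 ± 6.34 at E4 (n = 6; −2.84 ± 0.37, adjusted p = 2.23e-09), with 46.7 ± 23.4 at Ech (−1.50, adjusted p = 7.11e-04). The ETS factors Etv4 (66.1 ± 27.6 to 12.3 ± 5.81 CPM, −2.42 ± 0.42, adjusted p = 3.76e-06) and Etv5 (48 ± 6.31 to 10.1 ± 5.99 CPM, −2.30 ± 0.35, adjusted p = 1.86e-07) fell at E4, and so did Il17rd, an inhibitor of FGF signalling (17.2 ± 10.4 to 0.718 ± 0.903 CPM, −4.79 ± 0.65, adjusted p = 8.29e-09). Etv4 was already lower at E1 (−2.07, adjusted p = 6.02e-04). Etv1, the gene of the list that rose, had 99.8 CPM in controls and 257 CPM at E4, and was named after its values were seen.

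Of 22 heparan sulphate proteoglycans, their enzymes and FGF-binding proteins, 21 were tested, and 2 rose at E1, 4 rose and 8 fell at E4, and 4 rose and 7 fell at Ech, beside 8.42%, 22.4% and 18.7% of all genes in either direction. The 4 genes named were picked by the lowest adjusted p at E4. They all fell without overlap with controls, which that choice favours, so the lack of overlap is no further evidence. The syndecan Sdc2 went from 181 ± 41.7 CPM in controls to 15.5 ± 8.47 at E4 (−3.52 ± 0.35, adjusted p = 4.66e-13), and Sdc4 from 313 ± 74.8 to 48.7 ± 38.1 at E4 and 17.5 ± 4.81 at Ech (−4.16, adjusted p = 2.55e-17). The glypican Gpc5 went from 123 ± 34.3 to 3.25 ± 3.12 CPM (−5.37 ± 0.61, adjusted p = 3.84e-11) and Gpc6 from 38 ± 6.18 to 4.23 ± 3.09 CPM (−3.21 ± 0.36, adjusted p = 3.00e-11). The median of the list at E4 was −0.46.

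Among 6 other receptors and co-receptors, 1 rose and 1 fell at E1, and 1 rose and 2 fell at E4 and at Ech, against the same shares of all genes, 8.42%, 22.4% and 18.7%. The membrane proteins Flrt1 and Flrt2, which bind FGF receptors, fell at E4 from 269 ± 53.3 to 16.5 ± 4.38 CPM (−4.03 ± 0.36, adjusted p = 5.76e-15) and from 89.97 ± 18.7 to 4.18 ± 5.34 CPM (−4.44 ± 0.54, adjusted p = 4.58e-10), while Flrt3 had 11.6 ± 3.98 and 4.60 ± 3.99 CPM and did not pass (adjusted p = 0.303). Fgfr4, the remaining FGF receptor kinase, had no count in any of the 15 control libraries, and 7.79 ± 3.34 CPM at E1 (n = 5), 16.5 ± 9.11 at E4 (n = 6) and 7.62 ± 4.97 at Ech (n = 6) in spinal cord, with at least 3.98 CPM in each of those 17 libraries. Against a floor of 3 counts over the 5 spinal cord controls, 0.216 CPM, this was at least 34.6-fold, 74.2-fold and 34.5-fold higher. It was named after its values were seen.

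Of 8 signal relay genes, 2 passed at each stage, where 8.42%, 22.4% and 18.7% of all genes did. Ptpn11, which encodes the phosphatase SHP-2 that links receptors to the MAP kinase cascade, rose from 89.0 ± 30.1 CPM to 173 ± 39.4 at E1, 297 ± 30.3 at E4 (1.73 ± 0.24, adjusted p = 2.34e-08) and 141 ± 19.5 at Ech, where the call was lost without control replicate 1 (adjusted p = 0.155). The adaptor Grb2 rose at E1 (0.68 ± 0.18, adjusted p = 0.00772), but not without E1 replicate 3 (adjusted p = 0.0654). The phospholipase gene Plcg1 fell at E4 (−0.65 ± 0.25, adjusted p = 0.0448) and Ech (−0.84 ± 0.25, adjusted p = 0.00959). Its E4 call was lost with no filter (0.0629), with the replicate block (0.0640), with the spinal cord fitted alone (0.122), with the S number as a covariate (0.196) and without any of 8 libraries, control replicate 5 among them (0.219), and without that library the Ech call was lost too (0.0849). The docking protein gene Frs2, with 10.5 ± 3.62 CPM in controls and 13.9 ± 2.65 at E4, did not pass (adjusted p = 0.482). Of 20 other ligand genes, 11 were tested, and 1, 2 and 0 passed at E1, E4 and Ech against those shares of all genes. Fgf10 fell at E1 and E4 and Fgf14 at E4, both from means under 5 CPM, and Fgf11 passed at no stage (log2 difference 0.06 at E4). In hindbrain GLASTneg cells no gene of the 5 lists passed at any stage, and in GLASTpos cells Fgf14 fell at E1, Hs6st1 at E4 and Spry2 at Ech, while Sulf2 rose at Ech. The members of the lists and of the 6 genes were chosen with results of these libraries in view.

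**Figure D4:**
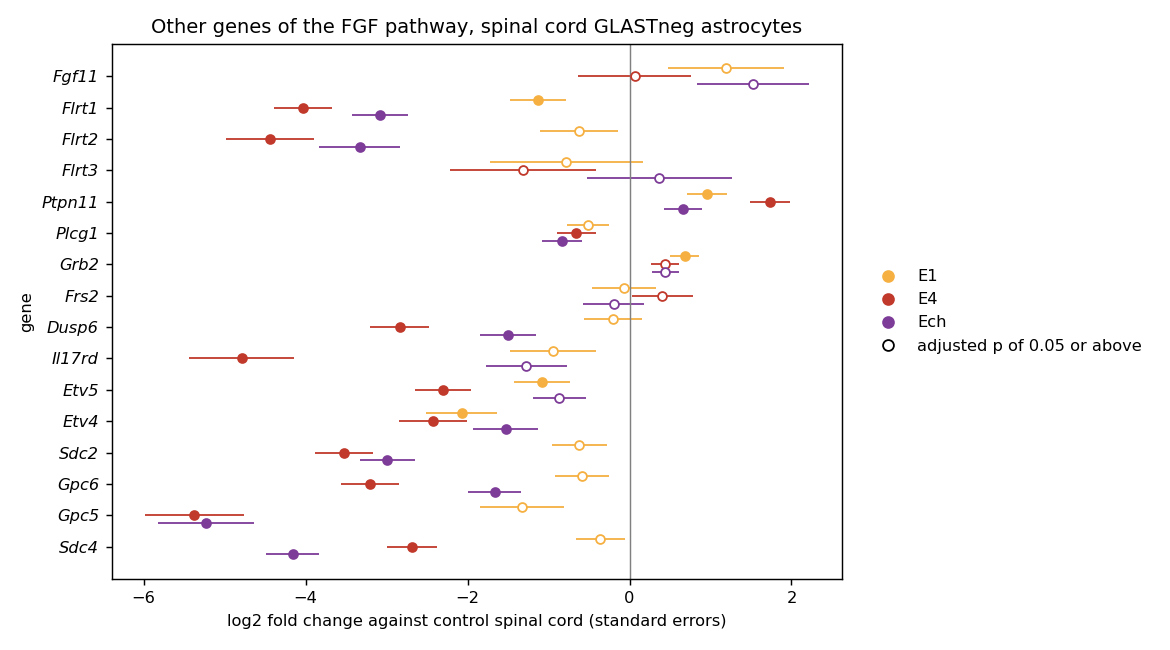
Log2 change of 16 other pathway genes in spinal cord at E1, E4 and Ech against controls, ± SE, with a colour for each stage and the genes grouped by role. The genes were picked by the lowest adjusted p at E4 within their lists, so they do not show the direction of a whole list. Most of those plotted from the target, proteoglycan and co-receptor lists lie below 0 at E4, down to −5.37 for Gpc5, and Ptpn11 lies at 1.73. In the whole proteoglycan list 4 genes rose and 8 fell at E4. Etv1 and Fgfr4, which rose at E4, are not plotted.

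In the FVB/N experiment the group names need care. Names in the study's list of top expressed genes differ from the sample labels for 12 of the 15 isolated libraries, and the labels were used. In that list, libraries labelled hindbrain GLASTneg are named spinal cord GLASTneg, and those labelled spinal cord GLASTneg are named hindbrain GLASTpos. Libraries labelled hindbrain GLASTpos are named forebrain GLASTpos there, and those labelled forebrain GLASTpos are named hindbrain GLASTneg. Libraries labelled hindbrain GLASTneg had 414 to 504 CPM of the 5 Hox genes that mark the spinal cord, and in the 3 libraries labelled spinal cord GLASTneg all 5 were at 0. The libraries labelled spinal cord also had 6153 to 6526 CPM of the Bergmann glia markers, against at most 641 CPM in the others, and 10454 CPM of Slc1a3, the gene of GLAST, against 778 CPM in those labelled hindbrain GLASTneg. These values go with the names of that list and not with the labels. Each library is still named below by its label. For those 12 libraries the list gives another region than the label, so a labelled region below is a name and not to be read as the tissue of origin. Isolated libraries held 416768 to 1269316 counts, with 3 counts at 2.36 to 7.20 CPM, and the fit held 14957 genes.

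Each FVB/N group was compared with the mean of the other 4, and 7 of 30 comparisons of the 6 genes passed. In the libraries labelled hindbrain GLASTneg, where 5.22% of all genes passed, Fgfr1 was at 58.6, 52.5 and 75.2 CPM, below all 12 other isolated libraries (145 to 289 CPM), and the difference was 3.21-fold (−1.68 ± 0.27, adjusted p = 1.03e-06). Fgfrl1 was higher there (253, 250 and 289 CPM; 0.67 ± 0.21, adjusted p = 0.0411), in 10 of 22 alternatives. In those labelled hindbrain GLASTpos, where 3.29% passed, Fgfr1 was at 289, 223 and 266 CPM (0.91 ± 0.21, adjusted p = 0.00324) and Fgfrl1 at 259, 288 and 276 CPM (0.74 ± 0.21, adjusted p = 0.0241). The Fgfr1 call was lost without replicate 1 (adjusted p = 0.0990) or replicate 3 (adjusted p = 0.0583) of that group. The Fgfrl1 call was lost without any of its 3 replicates (adjusted p = 0.115, 0.195 and 0.180), without replicate 2 labelled forebrain GLASTpos (0.0533) and with all 18 libraries in the fit (0.0577).

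The libraries labelled spinal cord GLASTneg, where 9.38% of genes passed, had 774, 1048 and 1092 CPM of Fgfr3, below the 1467 to 2013 CPM of all other isolated libraries (−0.90 ± 0.17, adjusted p = 3.65e-05). They had 191, 316 and 342 CPM of Fgfr2, against 97.3 to 220 CPM in the others (0.99 ± 0.22, adjusted p = 4.72e-04). Fgfrl1 was at 121, 138 and 95.6 CPM (−0.80 ± 0.23, adjusted p = 0.0152), a call lost without replicate 3 (−0.65, adjusted p = 0.0937). Set beside these, the C57BL/6J hindbrain GLASTpos controls had means of 795 CPM of Fgfr3 and 588 CPM of Fgfr2, and the C57BL/6J spinal cord controls 60.6 CPM of Fgfr1, but the tables were scaled separately and were not compared. With edgeR no gene of the 6 passed for libraries labelled forebrain GLASTneg or GLASTpos, where 1.53% and 2.25% of genes passed. At an unadjusted p under 0.05 there were 0 and 2, and DESeq2 called Fgfrl1 lower in the latter (−0.65, adjusted p = 0.0185). Fgf1 (3.22 to 43.4 CPM) and Fgf2 (0 to 25.8 CPM) passed in no FVB/N comparison and were near the floor of these libraries.

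By label, libraries named forebrain had less Fgfr2 than the mean of the other 2 labelled regions (−0.72 ± 0.20, adjusted p = 0.0224, 2.65% of genes passing). Those named hindbrain had more Fgfr3 (0.53 ± 0.13, adjusted p = 0.00589) and Fgfrl1 (1.01 ± 0.18, adjusted p = 4.71e-05, 3.81% passing). In the list of top genes, the libraries pooled here as forebrain come from different regions, and so do those pooled as hindbrain. The forebrain call of Fgfr2 passed in 17 of 22 alternatives and was lost without any 1 of 4 libraries, replicate 3 labelled forebrain GLASTneg, replicates 1 and 2 labelled forebrain GLASTpos and replicate 1 labelled hindbrain GLASTpos (adjusted p = 0.0609 to 0.0877). The hindbrain call of Fgfr3 was lost without replicate 3 labelled hindbrain GLASTpos (adjusted p = 0.0570). Labelled hindbrain GLASTpos had 4.20-fold more Fgfr1 than labelled hindbrain GLASTneg (2.07 ± 0.31, adjusted p = 1.78e-07), where 4.29% passed, and with edgeR or DESeq2 no gene of the 6 passed between the labelled forebrain fractions, where 1.32% passed and 0 of the 6 had an unadjusted p under 0.05. Under the names of the list of top genes, the Fgfr1 difference between the hindbrain fractions was −0.00537, that of Fgfrl1 in hindbrain −1.01 and that of Fgfr3 in hindbrain −0.58. The same names gave passing values for Fgfr2 and Fgfr3 between the hindbrain fractions (1.34, adjusted p = 0.00121, and −0.78, adjusted p = 0.00949) and for Fgfr1 in forebrain (1.10, adjusted p = 9.46e-06), so the sign and the call of these results follow the names used.

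**Figure D5:**
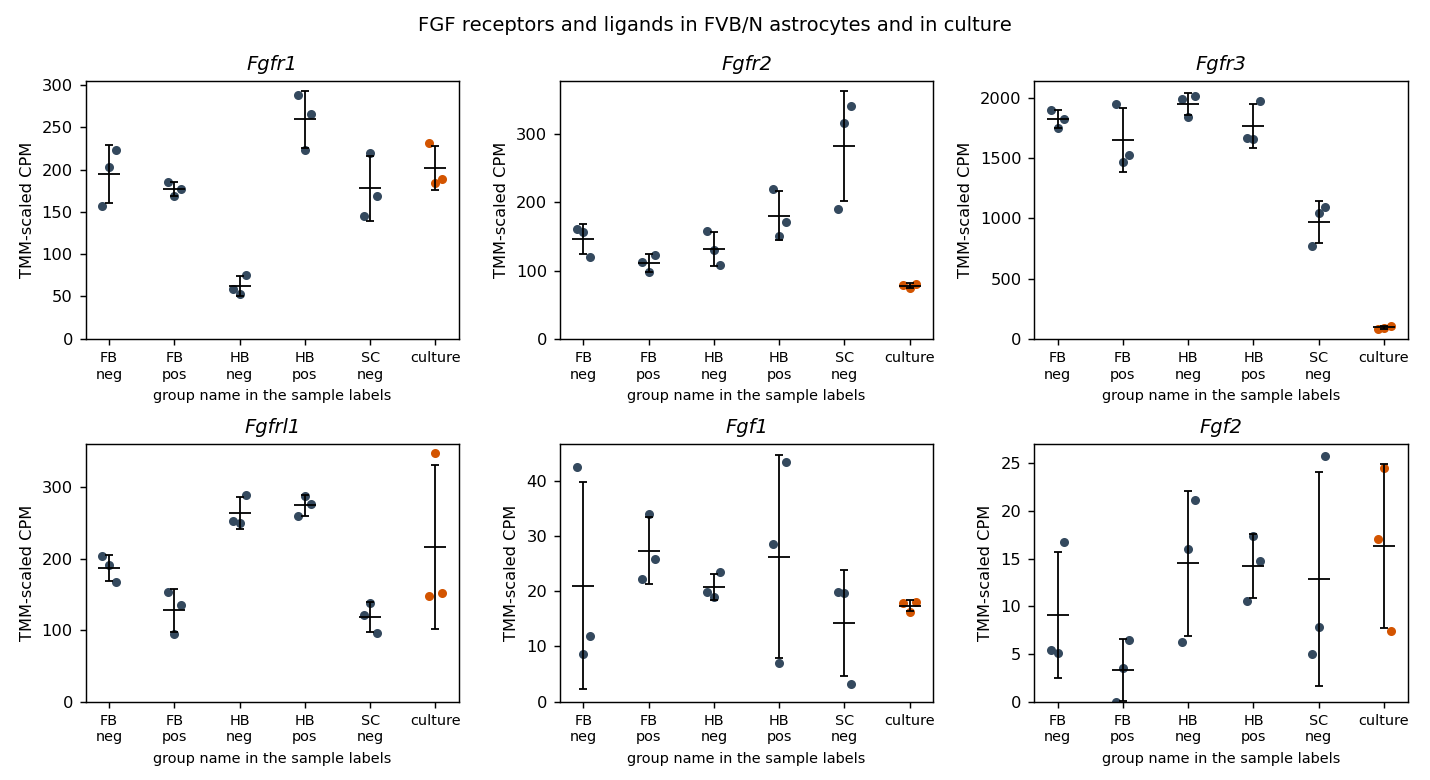
Level (CPM after TMM scaling) of the 6 genes in the 18 libraries of the subtype experiment by labelled group. Points are libraries and bars are mean ± SD. Fgfr1 is lowest in the libraries labelled hindbrain GLASTneg (62.1 ± 11.8 CPM), and Fgfr3 in the cultured cells (94 ± 13.1 CPM).

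Cultured neonatal astrocytes had little Fgfr3. The 3 cultures had 85.5, 87.3 and 109 CPM, below all 15 isolated libraries (774 to 2013 CPM) and 16.9-fold below the mean of the 5 isolated groups (−4.08 ± 0.21, adjusted p = 9.74e-20). Fgfr2 was 2.07-fold lower (79.6, 73.8 and 80.9 CPM; −1.05 ± 0.23, adjusted p = 3.42e-04), while Fgfr1 (232, 184 and 189 CPM; 0.35 ± 0.20, adjusted p = 0.170), Fgfrl1 (0.24), Fgf1 (−0.30) and Fgf2 (0.78) did not pass. In this comparison 36% of 17126 genes passed and the median gene was 0.43 higher in culture on the log2 scale, so relative to the median gene Fgfr3 and Fgfr2 were lower still. Of the 10 astrocyte markers 7 were lower and 1 was higher in culture, all but 1 of the 10 oligodendrocyte markers were lower and 11 of 12 myeloid markers were higher. Strain, age and culture differ together here and cannot be told apart.

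Some of the 6 genes overlap another annotated gene. Without knowing whether strand was used in counting, reads of Fgfr1 and its antisense gene Gm16159 (206 counts over all EAE libraries), of Fgfr3 and G630022F23Rik (575 counts) and of Fgf2 and Nudt6 (46 counts) cannot be told apart where they overlap, and an annotated transcript of Fgfr2 reaches into Ctbp2 on the same strand (3208 counts).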

How the data were processed

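The authors made QuantSeq 3′ libraries of sorted or cultured astrocytes and deposited 1 table of raw counts per gene for each experiment. The submitters' processing notes name HISAT 0.1.5, SAMtools, HTSeq 0.6.1p1 and the genome GRCm38, and whether strand was used in counting is not given in the sources used here. All values were whole numbers, no column was without a sample (0 columns), no row lacked a gene and no 2 libraries were identical (0 pairs). Groups came from the sample labels.

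Genes with 10 or more counts in total were fitted by edgeR (4.0.16, under R 4.3.3) and tested by its quasi-likelihood method, TMM-scaled and with group as the only term. All 66 EAE libraries, the 15 isolated libraries or all 18 libraries of the subtype experiment entered a fit, which held 23324, 14957 or 17126 genes. Tests were two-sided, with Benjamini-Hochberg adjustment over all genes. The study's own method, DESeq2 (1.42.0 here), and voom of limma 3.58.1 were alternatives. Leaving out a library kept the dispersion trend of the full fit and estimated TMM factors and quasi-likelihood dispersions anew.

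On simulated counts for spinal cord E4 against controls (22523 genes), 9 of 100 genes changed 2-fold and 69 of 100 changed 4-fold passed, with 2 of 22323 unchanged genes. For cultured against isolated cells (16524 genes) it was 23 and 65 of 100, with 18 of 16324. Floors cover counting error only, while the SE of a log2 change also holds the spread between libraries.

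The members and lists were chosen with earlier results of these data known. The 6 genes were named in every comparison. From each pathway list, up to 4 genes with the lowest adjusted p in spinal cord E4 and a mean of at least 5 CPM over the 66 libraries were named, and for each of the 6 genes the 3 most alike over the 12 groups. 1 gene that this rule names is not reported here. Fgfr4, Etv1 and the genes counted by name in small groups were named after their values were seen. Promoter windows came from RefSeq, for 4 of 6 genes.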

Additional observations from a re-analysis of the deposited data

Results flagged for a closer look

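The 6 genes in the 12 EAE groups, which hold 4 to 6 libraries, gave 72 sets of values. In 7 of these 72, 1 library stood apart from the others of its group by Dixon's test at its 95% level, which chance gives in about 1 of 20. For Fgfr1 these were spinal cord E4 replicate 6 (4.44 CPM) and hindbrain GLASTpos E4 replicate 1 (82.5 CPM), both the lowest of their groups. For Fgfr2 they were spinal cord Ech replicate 6 (464 CPM, the highest) and hindbrain GLASTpos control replicate 5 (394 CPM, the lowest). For Fgfrl1 they were hindbrain GLASTneg control replicate 5 (103 CPM, the lowest) and hindbrain GLASTneg Ech replicate 5 (213 CPM, the highest). For Fgf2 it was hindbrain GLASTneg E1 replicate 3 (5.16 CPM), the lowest of that group.

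The response to EAE differed between spinal cord and hindbrain GLASTneg astrocytes for Fgfr3 at E1 (log2 difference −1.69, edgeR adjusted p = 0.0460), E4 (−5.07, adjusted p = 1.22e-14) and Ech (−5.03, adjusted p = 4.01e-15), and for Fgfr1 at E4 (−2.28, adjusted p = 4.57e-07) and Ech (−1.48, adjusted p = 0.00135). The summed astrocyte markers of the spinal cord had a median of 19834 CPM in controls and 3801 CPM at E4, against 26914 and 27993 CPM in hindbrain GLASTneg cells, and their part in these differences was not tested.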

How the results depend on the processing

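The Fgfr3 decrease in spinal cord passed in all 20 alternatives at E1 (log2 change −2.07 to −1.32) and all 21 at E4 (−6.14 to −4.31) and Ech (−5.09 to −4.65), as did that of Fgfr1 in all 21 at E4 (−2.49 to −1.89) and Ech (−1.79 to −1.39). At E4 these alternatives include a fit of S numbers above 56 only, which kept 1 of 6 E4 libraries. Of the 18 spinal cord comparisons 7 passed, against 9 with DESeq2, 8 with scaling by total counts and 5 with an added log2 change past 1. In hindbrain GLASTneg cells 0 of 18 passed and 1 did, Fgf2 at E1, when that population was fitted alone. With the added log2 change past 1, calls fell from 5 to 3 between successive stages, from 7 to 1 for FVB/N groups against the other 4, and from 7 to 2 for regions and GLAST fractions. Under the names of the list of top genes, 7 of 30 region and fraction comparisons passed too, but 8 signs turned: Fgfrl1 0.67, Fgfr2 −0.34, Fgfr1 −1.68 and Fgfr3 0.39 for spinal cord, Fgfrl1 −1.01 and Fgfr3 −0.58 for hindbrain, Fgfr2 0.0867 for forebrain, and Fgfr1 −0.00537 between the hindbrain fractions. That setting changes only which libraries carry which name.

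Leaving out 1 library at a time gave 6 to 8 calls in spinal cord, 0 to 0 in each hindbrain population, 4 to 5 between successive stages, 5 to 5 between control populations, 4 to 5 for differences in response, 4 to 7 for FVB/N groups (4 without replicate 1 or 3 labelled hindbrain GLASTpos), 6 to 7 for regions and fractions and 2 to 2 for cultured cells. Without the 9 libraries of 2 mice, an alternative added after the data were seen, 7 spinal cord comparisons passed. With the first bracket number of the titles as a block in limma voom, control populations gave 6 calls in place of 5 with edgeR. Block and method changed together there.

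Over all groups, deviations of same-numbered libraries had a median correlation of −0.012 in both experiments, and 47 of 340 EAE pairs and 0 of 45 subtype pairs exceeded 0.1. The highest EAE value was 0.477. The EAE pairs also join libraries of different stages, so their median cannot decide whether libraries of the same stage are paired by number. With the replicate number as a block, 7 spinal cord comparisons, 0 in each hindbrain population, 4 between stages, 5 between control populations, 5 differences in response, 6 for FVB/N groups, 7 for regions and fractions and 2 for cultured cells passed. Of 66 and 18 libraries, 16 and 3 correlated best with their own number. Depth limits Fgf1 and Fgf2 in the FVB/N libraries and Fgf2 in spinal cord, which were at or near 3 counts in some libraries.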

Other observations

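Other pathway genes also differed between the hindbrain populations of C57BL/6J controls. In GLASTpos against GLASTneg cells, Flrt1 and Flrt2 were lower (log2 difference −2.05 and −4.39), Dusp6 and Etv5 were higher (1.22 and 1.22), as was the adaptor Grb2 (1.42), and the glypicans Gpc5 and Gpc6 differed in opposite directions (−3.91 and 3.11), all past edgeR's test, as were 13.5% of all genes. Of the 21 heparan sulphate genes tested, 3 were higher and 6 lower, and of the 11 feedback inhibitors and target genes 3 were higher. In cultured against isolated astrocytes, 7 of 11 feedback inhibitors and target genes were lower, and of the heparan sulphate genes 10 were higher and 3 lower, with Gpc5 at −7.36, in a comparison where 36% of all genes passed.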
